A study of Arabidopsis thaliana with 12 samples.

Results

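Chloroplast ribosomes are built partly from proteins whose genes lie in the nucleus, and 5 such genes could be followed here: those of the small-subunit proteins S6 (AT1G64510) and S10 (AT3G13120) and of the large-subunit proteins L5 (AT4G01310), L17 (AT3G54210) and L34 (AT1G29070). They were taken as the array rows whose platform annotation names exactly 1 gene, that gene being one of the 5. This gave 5 of 3439 rows, and 5 of the 691 genes that have a row of their own. The series holds 12 arrays of total RNA from Arabidopsis thaliana of the ecotype Columbia 0. By their titles, 6 are wild type (WT) and 6 are the stn7stn8 double mutant, which lacks both thylakoid protein kinases STN7 and STN8. The source field of every array gives wild type, so the genotype rests on the titles alone, and the labels say nothing of mutant alleles, organ, age or light. Titles number the replicates, but nothing in the labels says whether they were separate plants, so a p-value here speaks of the spread from array to array alone, and that spread may be technical.

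The ribosome of the chloroplast descends from that of a cyanobacterium and translates the messages of the plastid genome, among them those of the photosystem reaction centres and of the large subunit of Rubisco. Its RNAs and a minority of its proteins are made in the plastid, while the other proteins are made in the cytosol from nuclear genes and imported. In leaves these nuclear genes are expressed most strongly while chloroplasts develop. STN7 and STN8 phosphorylate proteins of the light-harvesting antenna and of photosystem II.

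Mutant replicates 4 and 5 held the same values (largest difference 4.0e-10) and were counted as 1 sample, which left 6 wild-type and 5 mutant arrays. The deposited intensities are on a linear scale. Column totals ran from 3586 to 3682, but the median log2 intensity of an array lay between -1.648 and -1.357 in wild type and between -1.003 and -0.944 in the mutant, a difference of 0.54 between the group means. On the deposited scale the median row was higher in the mutant by 0.50 (log2), and fold changes below are from quantile-normalized log2 values unless another scale is named. No row named STN7 or STN8, nor any of 17 marker genes of green tissue, root, seed or senescent leaf by itself, so neither genotype nor organ could be checked on the arrays. Rows differ in how well they bind their target, so the level of one row was not ranked against that of another, and a difference between 2 rows is read only as a shift between genotypes.

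The message of L34 was higher in the mutant, that of S10 passed narrowly and lost its call in most alternative settings, and those of S6, L5 and L17 did not pass the test. L34 was higher by 3.75-fold, a value carried in large part by a single array, and S10 by 1.29-fold (adjusted p = 0.0492, limma). L17, just on the other side of the threshold (adjusted p = 0.0581, limma), stood at 1.22-fold and S6 at 1.18-fold of wild type, and L5 at 0.879. Thus 2 of 5 members were called higher and 0 lower at an adjusted p under 0.05 (limma, Benjamini-Hochberg over all 3229 tested rows). Over all rows 23.7% were called higher and 19.6% lower, so the count for the ribosomal proteins, at 2 of 5, is read against a background in which 43.3% of rows were called in some direction. The median log2 fold change of the 5 genes was 0.29, and that of all rows was 0.058. All 5 genes had a value above 0 on every array, so none of them entered the test through one group only.

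**Figure D1:**
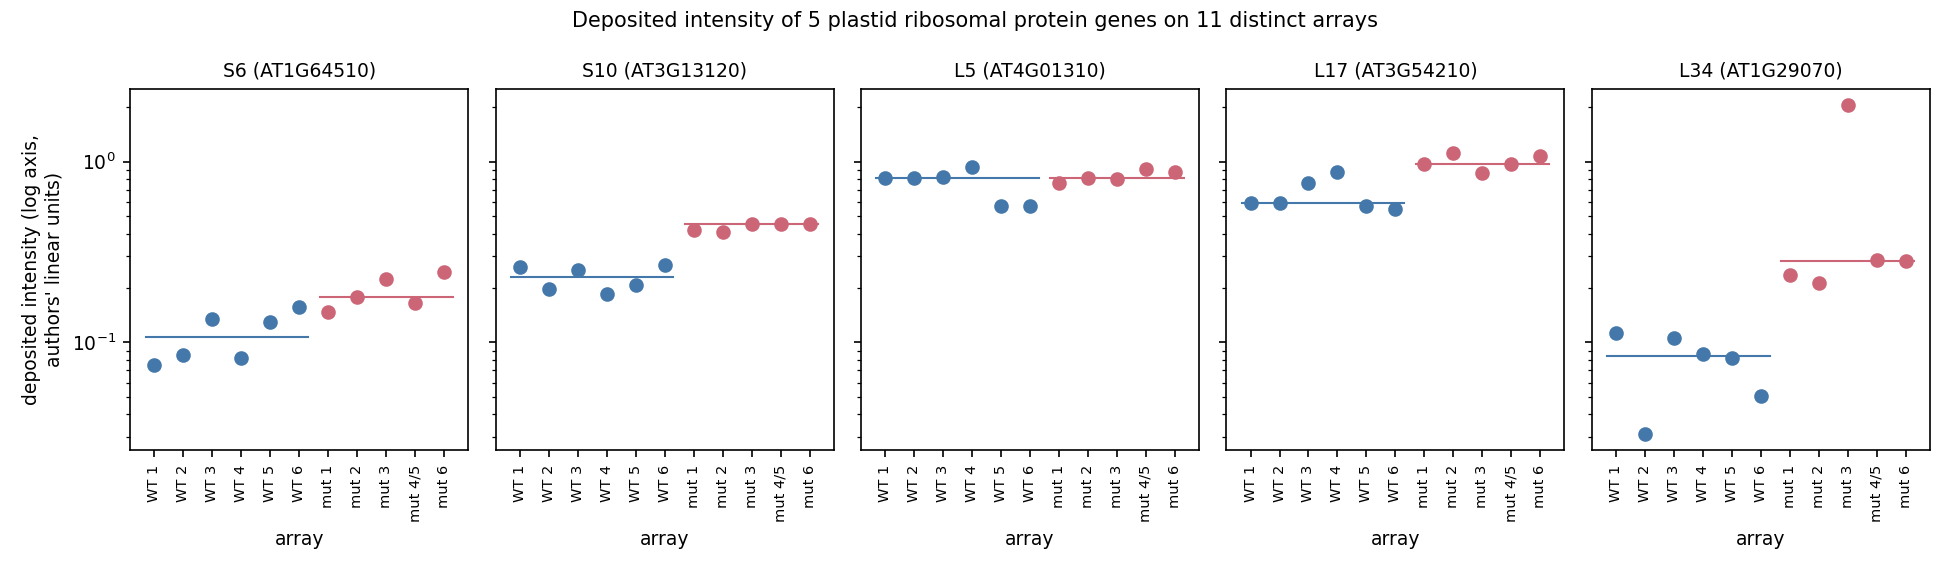
Deposited intensity (log axis, authors' linear units) of each gene on each of the 11 distinct arrays, with wild type in blue, the stn7stn8 mutant in red and a line at each group's median. S10 and L34 do not overlap between the groups on this scale, and mutant replicate 3 lies far above all other arrays for L34, at 2.04.

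In the small subunit, S6 in bacteria pairs with S18 on the platform of the subunit. Its deposited intensity in wild-type replicates 1 to 6 was 0.0747, 0.0853, 0.135, 0.0823, 0.130 and 0.156. In mutant replicates 1, 2, 3, 4 and 5 together, and 6 it was 0.148, 0.179, 0.225, 0.165 and 0.245. The groups overlapped through 1 array, as 4 of 5 mutant arrays lay above the highest wild-type array on this scale. After normalization the means were -2.96 ± 0.54 (log2, SD, n = 6) and -2.73 ± 0.29 (n = 5). There wild-type replicates 5 and 6 were the highest arrays of their genotype, at -2.51 and -2.23, and 0 of 5 mutant arrays lay above the highest wild-type array. This is a log2 fold change of 0.24 ± 0.24 (SE; 95% interval -0.30 to 0.77; adjusted p = 0.464, limma). It passed in 3 of 30 alternatives (adjusted p from 0.00555 to 0.756, limma), the fits without scaling among them. An interval of this width holds both a moderate increase and a small decrease.

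S10 sits in the head of the small subunit in bacteria. Its deposited intensity in wild-type replicates 1 to 6 was 0.261, 0.196, 0.2499, 0.185, 0.207 and 0.267. In the mutant arrays, in the same order as above, it was 0.418, 0.406, 0.451, 0.449 and 0.454. Every mutant array lay above every wild-type array here, and the mutant arrays were close together, with a coefficient of variation of 5.10% against 15.7% in wild type. On this scale it was lower in the mutant for S6 (21.3% against 30.8%), L5 (7.32% against 19.7%) and L17 (9.85% against 20.2%) too. For L34 it was higher (131% against 40.5%). The median log2 intensity of whole arrays also varied less in the mutant (SD 0.024 against 0.126). On the deposited scale, non-overlap with the mutant higher was met by 41.1% of all rows. After normalization S10 went from -1.88 ± 0.31 (log2, SD, n = 6) to -1.51 ± 0.058 (n = 5), with 3 of 5 mutant arrays above the highest wild-type array, replicate 6 at -1.49. The log2 fold change was 0.37 ± 0.14 (SE; 95% interval 0.066 to 0.67; adjusted p = 0.0492, limma). An exact two-sided permutation test over the 462 splits of the arrays gave p = 0.0238, or 0.0543 adjusted over the 3145 rows with all values. As a position among the rows of its own array, S10 lay between the 18.8 and 42.4 percentile in wild type and between 39.7 and 43.4 in the mutant. The call lies at the edge of the threshold: it held in 14 of 31 alternative settings, all with S10 higher in the mutant (adjusted p from 3.4e-05 to 0.193, limma). These 14 include the fit with the identical arrays counted as 2 (adjusted p = 0.0271, limma). They also include the fits without scaling, where 1814 and 1638 of 3229 rows were called higher. With the replicate number of the titles as a block the call was lost (0.37, adjusted p = 0.0751, limma).

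In the large subunit, L5 in bacteria holds the smallest ribosomal RNA in the central protuberance. Its deposited intensity in wild-type replicates 1 to 6 was 0.809, 0.814, 0.817, 0.936, 0.571 and 0.571, and in the mutant arrays it was 0.757, 0.809, 0.805, 0.910 and 0.876. All 5 mutant values fell within the wild-type range, with the low wild-type values being those of replicates 5 and 6. After normalization L5 was the 1 member whose mutant mean lay lower, at -0.47 ± 0.10 (log2, SD, n = 5) against -0.28 ± 0.21 (n = 6), and all 5 mutant arrays lay below the wild-type mean. The log2 fold change of -0.19 ± 0.11 (SE; 95% interval -0.43 to 0.055) did not pass (adjusted p = 0.195, limma). Without wild-type replicates 5 and 6 it was -0.31 and passed (adjusted p = 0.0120, limma). Over all 31 alternative settings the adjusted p ran from 0.0119 to 0.463 (limma).

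L17 in bacteria lies on the large subunit near the mouth of the exit tunnel. Its deposited intensity in wild-type replicates 1 to 6 was 0.590, 0.591, 0.757, 0.875, 0.565 and 0.545, and in the mutant arrays it was 0.965, 1.12, 0.868, 0.968 and 1.07. The groups overlapped only in wild-type replicate 4 and mutant replicate 3, and 4 of 5 mutant arrays lay above every wild-type array on this scale. The normalized means were -0.46 ± 0.19 (log2, SD, n = 6) and -0.17 ± 0.17 (n = 5), and all 5 mutant arrays lay above the wild-type mean. After normalization only 2 of 5 mutant arrays lay above the highest wild-type array, replicate 4 at -0.13. The log2 fold change was 0.29 ± 0.11 (SE; 95% interval 0.042 to 0.54; adjusted p = 0.0581, limma). It was 0.36 without wild-type replicate 4, the highest of its genotype, and 0.35 without mutant replicate 3, the lowest of its genotype. Both values passed (adjusted p = 0.0179 and 0.0376, limma), but leaving out such an array widens the difference in any case. The other 9 arrays left out singly gave no passing value. Over all 31 alternative settings the adjusted p ran from 0.00169 to 0.638 (limma).

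L34, among the smallest proteins of the large subunit in bacteria, was the member with the largest difference and the largest spread. Its deposited intensity in wild-type replicates 1 to 6 was 0.113, 0.0313, 0.105, 0.0863, 0.0821 and 0.0506. In mutant replicates 1 and 2 it was 0.237 and 0.213, in replicate 3 it was 2.04, in replicates 4 and 5 together 0.287 and in replicate 6 0.281. Every mutant array lay above every wild-type array, on the deposited scale and after normalization; over all rows 15.7% were separated this way after normalization. The normalized means were -3.55 ± 0.67 (log2, SD, n = 6) and -1.64 ± 1.49 (n = 5), and the log2 fold change was 1.91 ± 0.60 (SE; 95% interval 0.60 to 3.21; adjusted p = 0.0222, limma). The row is dim in wild type, between the 1.88 and 11.3 percentile of its array, and was between the 17.1 and 23.1 percentile in 4 mutant arrays and at 92.2 in replicate 3. L34 was positive in all 30 alternatives that gave it a value and passed in 25 of them (adjusted p from 0.00264 to 0.144, limma).

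**Figure D2:**
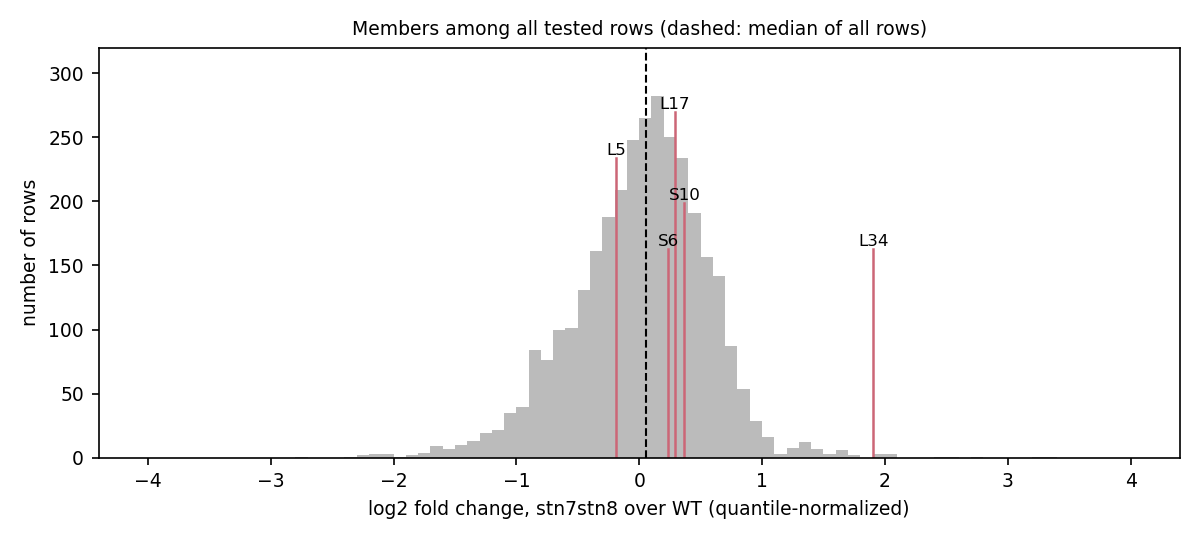
Number of rows (vertical axis) by log2 fold change of mutant over wild type after quantile normalization (horizontal axis) for the 3229 tested rows, with the 5 genes as red lines and the median of all rows, 0.058, dashed. S6, S10, L5 and L17 lie within the bulk of the rows, and L34 at 1.91 lies above 99.7% of them or level with them.

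The L34 value of mutant replicate 3 was 8.04 times the mean of the other 4 mutant arrays, which lay between 0.213 and 0.287. Without that array the mutant mean was -2.31 ± 0.14 (log2, SD, n = 4), and the log2 fold change was 1.24 ± 0.31 (SE; 95% interval 0.56 to 1.93; adjusted p = 0.00908, limma), a 2.37-fold difference in place of 3.75-fold. The difference of the group medians, which a single array moves little, was 1.18. The other 4 mutant arrays were all above every wild-type array. The low end of L34 in wild type came from replicate 2, at -4.73, and leaving it out gave 1.66 on the log2 scale (adjusted p = 0.0467, limma). At a cut of 4-fold upward, mutant replicate 3 stood apart in no other row. Of 3172 rows with a value on all 5 mutant arrays, 1 lay that far above all others there, namely L34. The matching counts in the other arrays of both genotypes were 0 to 3 rows. Rows at least 4-fold below every other mutant array numbered 5 in replicate 3 and 2 to 10 in the other mutant arrays. Replicate 3 was also the highest mutant array, by less than 4-fold, for PAC (AT2G48120) and AT4G33760. Among the 301 rows closest in brightness, the spread of L34 within genotypes was at the 97.3 percentile, while the other 4 members lay between the 45.2 and 58.8 percentile of theirs.

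The effect of single arrays on the other members was smaller in size but touched the calls. S10 ranged from 0.27 (without wild-type replicate 4) to 0.44 (without wild-type replicate 6) and passed in 2 of 11 such fits, those without wild-type replicate 1 or 6. S6 ranged from 0.10 to 0.38 and passed in 0 of 11. L5 ranged from -0.24 to -0.14 and passed in 0 of 11. L17 ranged from 0.24 to 0.36 and passed in 2 of 11, as described above. No array left out turned the direction of any of the 5 genes.

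**Figure D3:**
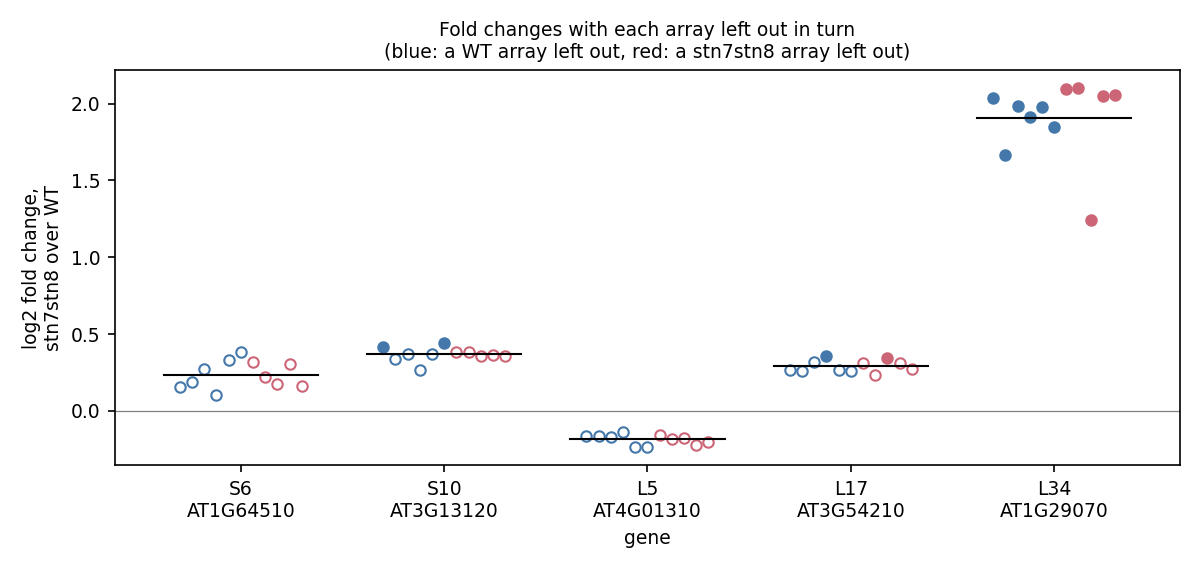
Log2 fold change of mutant over wild type (vertical axis) for each gene with each of 11 arrays left out in turn, blue where the array was wild type and red where it was mutant, filled where the adjusted p was under 0.05, with a line at the value from all arrays. L34 falls from 1.91 to 1.24 without mutant replicate 3, and no point of the other genes crosses 0.

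How far the subunits moved apart was described by the difference in log2 intensity between 2 members within each array, in which any factor that multiplies a whole array cancels. The fold changes of the 5 genes ran from -0.19 to 1.91, with an SD of 0.80 between genes, or 0.25 without L34. Over all tested rows, with none left out, the SD of the fold changes was 0.56. The 0.25 leaves out the member of largest change, so it cannot be set against that value. Among the 6 pairs without L34, L5 against L17 was separated between the genotypes after quantile normalization, after cyclic loess and on the deposited values, which centring on the medians leaves as they are for any such difference. The difference of L5 minus L17 in wild-type replicates 1 to 6 was 0.38, 0.39, 0.11, 0.095, 0.0060 and 0.059, and in the mutant arrays it was -0.37, -0.56, -0.14, -0.11 and -0.33. All mutant values lay below all wild-type values, a shift of -0.48 ± 0.11 (SE, n = 6 and 5), or -0.46 on the deposited values. The wild-type values were alike in consecutive arrays, so this SE, which takes each array as separate, may be too small. After quantile normalization L5 against L17 was the 1 separated pair of the 6 without L34, where 23.9% of all pairs of rows with 1 gene name were separated. On the deposited values 2 of the 6 were, against 26.8%. The signal of L5 relative to L17 was lower in the mutant arrays under these scalings, although neither gene passed the test after quantile normalization. Counts this near the share over all pairs do not set L5 and L17 apart from other rows. Their own levels do not tell which of them moved, because L5 was lower and L17 higher after normalization and both were higher by mean on the deposited scale.

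S10 against L5 shifted by 0.55 ± 0.20 (SE) after normalization, where the genotypes overlapped, and by 0.78 on the deposited values, where they did not. S6 against S10, the pair within the small subunit, shifted by -0.13 ± 0.20, less than its SE. S10 against L17 shifted by 0.078 ± 0.21, and S6 against L17 by -0.053 ± 0.30. S6 against L5 shifted by 0.42 ± 0.33. The 4 differences of another member minus L34 shifted by -2.09 to -1.54 in the means and by -1.34 to -0.57 in the group medians, which mutant replicate 3 moves less. Of these, S10 against L34 and L5 against L34 were separated between genotypes. In all, 3 of 10 pairs were separated after normalization, where 23.9% of all 196251 pairs of rows with 1 gene name and complete values were, and 4 of 10 on the deposited values, against 26.8%. These pair values are descriptions without a test, and the 10 pairs share 5 rows.

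**Figure D4:**
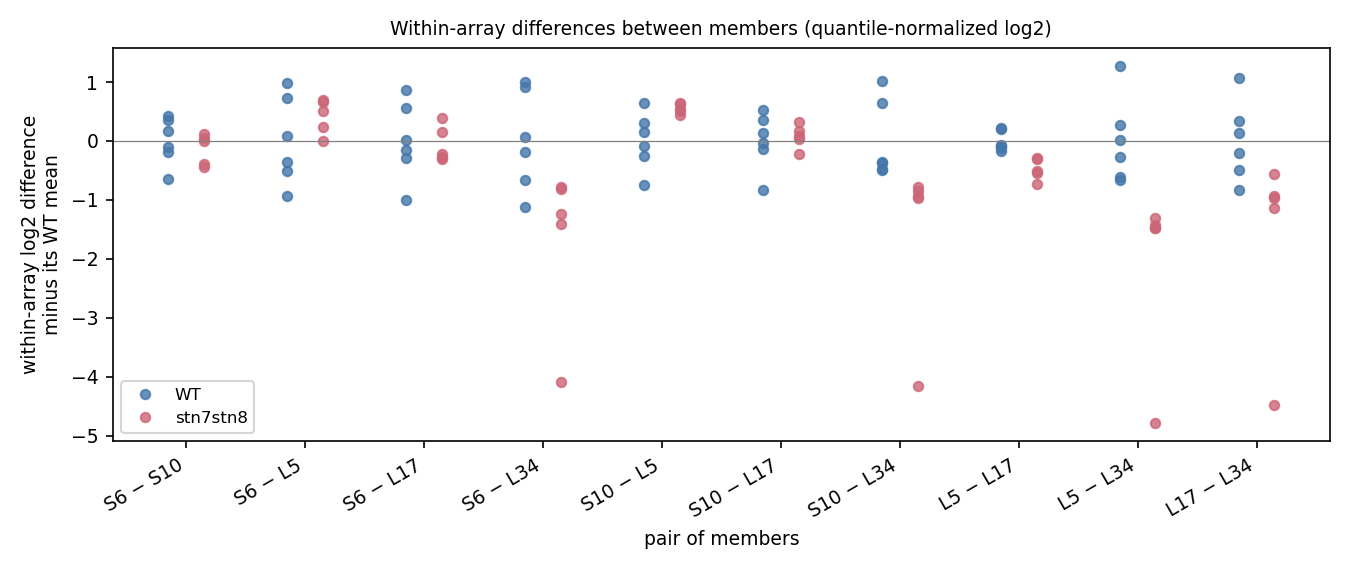
Within-array difference in normalized log2 intensity between 2 members, minus its wild-type mean (vertical axis), for the 10 pairs, with wild-type arrays in blue and mutant arrays in red. L5 minus L17 is lower in all mutant arrays, and the lone low points of the 4 pairs with L34 are mutant replicate 3.

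The scaling between arrays set how many members passed. On the deposited values 4 of 5 were higher (S6 at 0.83, S10 at 0.95, L17 at 0.63 and L34 at 2.42, adjusted p = 0.00555, 3.4e-05, 0.00169 and 0.00264, limma), but 56.2% of all rows were called higher there and the median row stood at 0.50. L5, at 0.17 on that scale, lay below the median row. With each array centred on its median, S10 and L34 were higher (0.41 and 1.88, adjusted p = 0.0238 and 0.0160, limma) and L5 was lower at -0.37 (adjusted p = 0.0119, limma), while L17 was at 0.088 and did not pass. There 19.5% of all rows were higher and 26.6% lower. After cyclic loess, 1 member was higher, L34 at 1.75 (adjusted p = 0.0231, limma), against 22.2% of all rows, and S10 was at 0.32 (adjusted p = 0.0761, limma). Under each of these 4 scalings S6, S10, L17 and L34 lay above the median of all rows and L5 below it. Centring moves all rows of an array alike, so it repeats the positions found without scaling. As many of all rows lie above that median as below it.

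**Figure D5:**
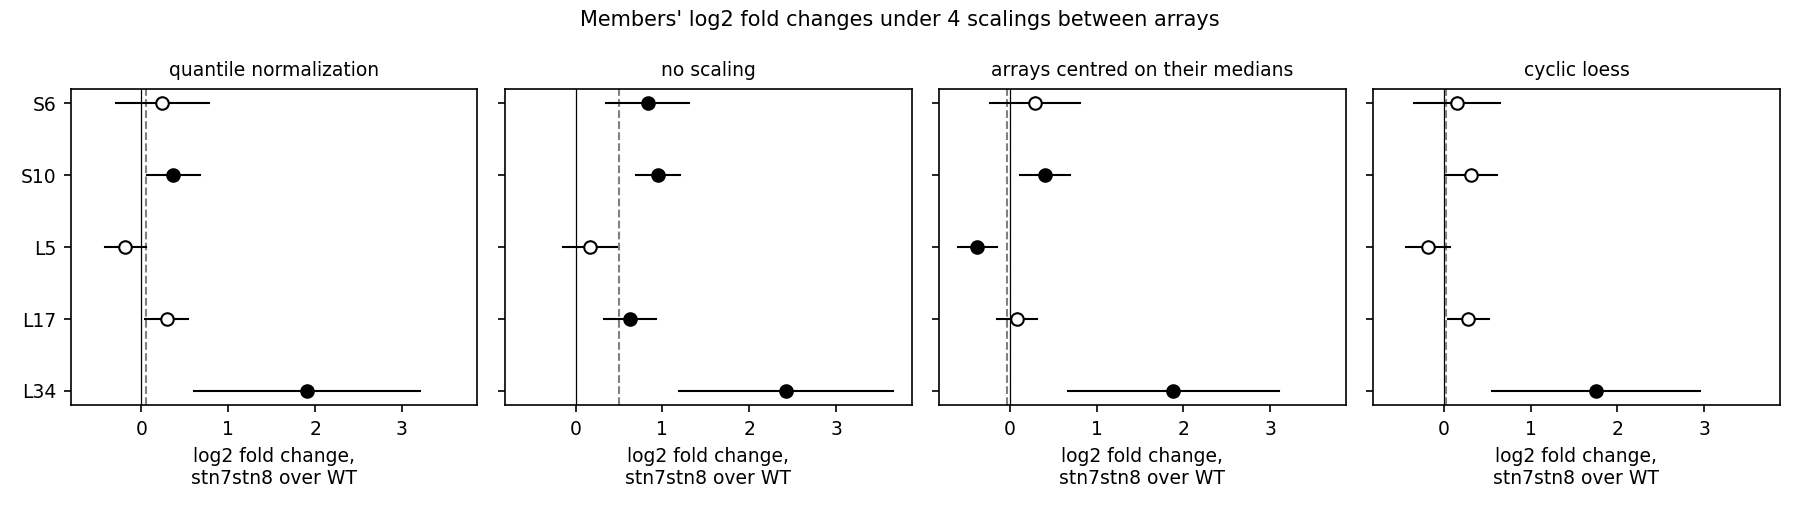
Log2 fold change of mutant over wild type (horizontal axis) with 95% intervals for the 5 genes under 4 scalings between arrays, filled where the adjusted p was under 0.05, with the median of all rows dashed. S6, S10, L17 and L34 lie to the right of the dashed line in every panel and L5 to its left. The panels without scaling and with centring place the genes alike relative to that line.

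With the median of all intensities added to every value before logs were taken, a step that compresses dim rows, L34 was at 0.66 (adjusted p = 0.144, limma) and S10 at 0.14, which passed (adjusted p = 0.0478, limma); 22.6% of all rows were called higher in that setting. Wild-type arrays with consecutive numbers lay close together in their medians and, for replicates 1 and 2 and for 5 and 6, in L5 and L17. This did not hold for every member. Wild-type replicates 1 and 2 were the highest and the lowest for L34 (0.113 and 0.0313), and stood at 0.261 and 0.196 for S10. With consecutive wild-type arrays averaged to 3 values the call of L34 was lost and that of S10 held (adjusted p = 0.0833 and 0.0488, limma). With consecutive arrays as a random block the adjusted p of L34 was 0.0555 and that of S10 was 0.193 (limma). Whether consecutive arrays share an extract was not tested. In these total RNA samples, fewer cells of a kind and less RNA per cell cannot be told apart.

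Few other genes of plastid translation could be read. A list of 41 nuclear genes of plastid ribosomal proteins had 6 with a row of their own, the 5 above and AT5G65220 (protein L29), which was listed at 0 on all arrays and not tested. Of 16 plastid translation factors 0 had a row of their own. Of 18 genes of plastid ribosome assembly and rRNA maturation 3 had one, in 4 rows, of which 3 were tested: 1 was lower, 0 higher and 2 did not pass, with a median log2 fold change of -0.18. The lower one was a row of AT2G25870, which encodes a plastid relative of the bacterial rRNA maturation enzyme YbeY. That row went from -0.024 ± 0.16 (log2, SD, n = 6) to -0.33 ± 0.063 (n = 5). Its fold change on the log2 scale was thus -0.31 ± 0.090 (adjusted p = 0.0161, limma; ± gives the SE). Without scaling the same row was at -0.0050 and the call was lost (adjusted p = 0.973, limma). Over all 31 alternative settings its adjusted p ran from 7.1e-04 to 0.977 (limma). The second row of AT2G25870 gave -0.17 (adjusted p = 0.517, limma), so the rows of this gene differed in call. Without scaling the second row was at 0.17 and did not pass (adjusted p = 0.502, limma). PAC (AT2G48120), the PALE CRESS protein needed for plastid ribosomes, gave -0.18 (adjusted p = 0.448, limma), and 0.32 without scaling, where it did not pass either (adjusted p = 0.172, limma). AT5G46420, a relative of the bacterial RimM factor, was listed at 0 on 9 of 11 arrays and not tested.

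Of 19 organellar aminoacyl-tRNA synthetases 1 had a row of its own, AT4G33760, an enzyme that charges aspartate tRNA. It was lower in the mutant, from -0.30 ± 0.096 (log2, SD, n = 6) to -1.02 ± 0.58 (n = 5). This amounts to -0.72 ± 0.22 as a fold change in log2 units (adjusted p = 0.0189, limma; ± gives the SE). Without scaling it was at -0.31 and did not pass (adjusted p = 0.197, limma). Over all 31 alternative settings its adjusted p ran from 8.8e-05 to 0.357 (limma). Mutant values of AT4G33760 ran from -1.53 to -0.037, the highest being replicate 3, and those of wild type from -0.39 to -0.18. Leaving out mutant replicate 3 gave -0.98 (adjusted p = 8.8e-05, limma). The genes beside the ribosomal proteins that passed were thus lower in the mutant, 2 of the 4 rows tested, where 19.6% of all rows were lower.

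For each member the 3 rows with 1 gene name most like it over the 11 arrays were sought among 626 rows with complete values, by Pearson's r of normalized log2 values. These r describe the arrays: they were chosen as the highest, both genotypes enter them, and no p is given. For S6 they were SAP (AT5G35770), AT3G56290 and AT1G56460, with r from 0.81 to 0.86. For S10 they were AT5G43770, SPL (AT4G27330) and AT5G67490, with r from 0.81 to 0.84. For L5 they were AT2G23890, AT2G47360 and CHL (AT3G47860), the plastid lipocalin, with r from 0.88 to 0.92. For L17 they were AT5G38750, AT3G15900 and AT5G55570, with r from 0.83 to 0.86. For L34 they were AT1G18290, AT5G52530 and AT1G69910, with r from 0.90 to 0.92, and from 0.76 to 0.85 without mutant replicate 3. No member was among the 3 rows most like another member. With 3 rows taken from 626, this says little of whether the members vary together. Between members themselves r ran from -0.77 (S6 and L5) to 0.65 (S6 and S10) over the 11 arrays.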

How the data were processed

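The deposited table holds 1 intensity per row and array on a linear scale, with no value below 0. The authors' scaling of the intensities and their treatment of background are steps that no label or header records. Groups and replicate numbers come from the titles. Gene names come from the platform annotation, where 692 rows carry a single gene, 870 carry more and 1877 carry none. Of these 692, 690 were found in the TAIR10.1 gene table. No coordinates or sequences are given. Protein names of the 5 genes are those in common use.

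Entries of 0 were taken as missing and intensities were log2-transformed and quantile-normalized over 11 arrays, the identical pair counted once. Rows needed 4 values per group, which left 3229. The model was fitted in R 4.3.3 by limma 3.58.1, with its functions lmFit and eBayes and two-sided tests, and p-values adjusted by the Benjamini-Hochberg method over all tested rows, with a threshold of 0.05. The fit was tested on simulated data. Alternatives changed the scaling, zeros, filters, variance model, weights, blocks and arrays used. The number of arrays limits the precision.

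The members and gene lists were chosen with earlier results of these data known. All 5 members are named, with every measured gene of the other lists (5 or fewer each), and for each member the 3 rows most like it. No gene of the array carried the words "ribosomal protein" in the gene table, so that list was empty.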

Additional observations from a re-analysis of the deposited data

Results flagged for a closer look

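In 18 groups of values, those of the 5 members and of the 4 other tested rows of plastid translation in each genotype, 2 had an array at a distance from the rest. About 1 in 20 groups would show this by chance if they were independent, but these groups share their arrays. Both were mutant replicate 3. For L34 it stood at 1.02 (normalized log2 scale), while the values of the other 4 ran from -2.46 to -2.18. For PAC (AT2G48120) it was at -0.50, and the others lay between -1.43 and -1.17; without it the log2 fold change of PAC was -0.35 in place of -0.18, and did not pass (adjusted p = 0.0750, limma).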

How the results depend on the processing

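The rows called higher, 766, and lower, 632, became 1814 and 281 with no scaling, 418 and 390 with consecutive arrays averaged in both groups, and 506 higher with them as a random block. With no scaling and consecutive wild-type arrays averaged they were 1638 and 223, and with arrays centred on their medians and the same averaging 455 were higher; these combined settings were chosen after seeing the data. Without single arrays 686 to 756 rows were higher and 590 to 631 lower.

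S6 passed with no scaling (0.83, also with consecutive wild-type arrays averaged) and without wild-type replicates 5 and 6 (0.53, adjusted p = 0.0435, limma). S10 lost its call with cyclic loess (0.32), zeros replaced by a low value (0.36), 2 measured values per group (0.37), consecutive arrays averaged in both groups (0.38), consecutive arrays as a random block (0.37), without mutant replicates 1 and 2 (0.41) and by the exact permutation test (0.37); without single arrays it ranged from 0.27 to 0.44. L5 turned to 0.17 with no scaling, also with consecutive wild-type arrays averaged, and passed at -0.37 with arrays centred on their medians, again with and without that averaging, and at -0.31 without wild-type replicates 5 and 6. L17 passed with no scaling (0.63, with and without that averaging), without the dimmest 25% of rows (0.29), with trend and robust variance (0.29) and with the identical arrays counted as 2 (0.28); without single arrays it ranged from 0.24 to 0.36. L34 lost its call with the median intensity added (0.66), with consecutive arrays averaged in wild type (1.91) or in both groups (2.35), as a random block (2.18), and with arrays centred on their medians and consecutive wild-type arrays averaged (1.88). In the averages over both groups, mutant replicate 3 stayed a unit of its own. S6 and L34 have no value without the dimmest 25% of rows. With no scaling, and with that and consecutive wild-type arrays averaged, the second row of AT2G25870 turned to 0.17 and PAC to 0.32, neither passing. The cause of these changes was not tested.

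With the replicate number as a replicate block S10 lost its call (0.37, adjusted p = 0.0751, limma), and as a random replicate block L17 passed (0.29, adjusted p = 0.0455, limma); no other call of the 5 genes changed. To compare same-numbered arrays, mutant replicates 4 and 5 together were set against wild-type replicate 4 (r = 0.0094). Wild-type replicate 5 was not compared. Same-numbered arrays deviated together with r from 0.0094 to 0.23 across 3145 rows, over 0.1 in 4 of 5 pairs but not in every pair. Of the mutant arrays, 4 of 5 correlated best with their own number. This is a hint of shared structure from the data, not from the labels, and the fit without the block was kept. For S6 and L34, the dim rows, low signal limits what can be seen.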
